A study of Mus musculus with 4 samples.

Results

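The cytoplasmic ribosomal protein genes were followed here through single basal keratinocytes of mouse dorsal skin. Their rows were found by name, as symbols starting with Rpl or Rps and a digit or p, without the kinase genes named Rps6k and without rows named as pseudogenes. Of 24378 gene rows, 85 matched, and 77 of these held at least 20 unique molecular identifiers (UMIs, each the tag of 1 cDNA molecule) summed over the cells kept. The 77 members comprised 30 small-subunit and 47 large-subunit names. Among the 8 rows outside the minimum, Rpl26, Rpl10l, Rpl39l and Rpl3l held 0 UMIs, Rps27 held 2, Rps19bp1 held 8, Rpl34 held 13 and Rps4y2 held 19. The members just inside were Rpl30 with 24 UMIs and Rpl7l1 with 39. The 4 member names Rpl7l1, Rpl22l1, Rpl36al and Rps27l are paralogs rather than the common form of a subunit protein.

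The mice were female Ivl-CreERT2/R26-tdTomato animals killed at postnatal day 57, in which tamoxifen (10 µg per g by the labels, injected into the peritoneum 2 days earlier) lets Cre act in cells using the Involucrin promoter and switch on tdTomato. All 4 libraries share this genotype and treatment, so that no library came from an untreated mouse. The study's methods give a higher tamoxifen dose than the labels, and the difference is not explained in the sources used here. Live cells with CD49f and LY6A and without CD34 at the surface, the gate for basal interfollicular epidermis, were sorted as traced (Tom+) or non-traced (Tom-) and captured on microfluidic chips of 96 wells. There were 2 libraries of each sort, from 2 mice by the study's account, called Tom+ 1, Tom+ 2, Tom- 1 and Tom- 2, and the 2 libraries numbered 1 share a tag in their titles, as do the 2 numbered 2. Which mouse a tag stands for is not given in the sources used here, and p-values measure the spread between these libraries only.

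The 2 ribosomal subunits are assembled in the nucleolus from ribosomal RNA and about equal numbers of copies of each protein, and they leave for the cytoplasm to read mRNA. Most of the mRNAs of these proteins start with a cytosine followed by a run of pyrimidines, the 5′ terminal oligopyrimidine (TOP) tract, through which growth signals set their translation together. In the epidermis, basal cells divide and make the proteins of new cells, and differentiating cells turn their output to keratins such as Krt10 and to barrier proteins.

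The chemistry used here reads the 5′ end of each mRNA, and the members are known for a shared start. Bases near the annotated start sites are therefore shown for some members that the results below turn on. The sequences come from RefSeq promoters (GRCm38.p6), which hold 57 of the 77 members. Each is a run of 30 bases, 5′ to 3′ on the gene's strand, and capitals mark 1 match to CTCTT or to CTTTC or to CTTCC, or to the overlapping CTCTTTC. The runs were placed around the match and not around the start. In Rpl11, Rps15, Rps2 and Rpl9 the match began 22, 25, 29 and 33 bases after the annotated start, and the run shown does not hold the start. Rpl13a and Rpl4 were among the abundant members, Rps26 was called lower in the libraries numbered 2 and Rps2 had a like fold change there that did not pass (-0.99, edgeR adjusted p = 0.143). Rpl9, Rpl11, Rps15, Rps15a and Rpl27a had the highest ratios in the low-share cells, which are cells with under 4% of their UMIs on the members, and Rps7 was not detected in them.
Rpl13a, chr7:45128719-45128748, minus strand: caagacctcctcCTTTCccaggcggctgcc
Rpl4, chr9:64173367-64173396, plus strand: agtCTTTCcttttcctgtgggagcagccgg
Rps7, chr12:28635944-28635973, minus strand: gaagagCTTCCggtttccacccacctactt
Rps26, chr10:128626484-128626513, minus strand: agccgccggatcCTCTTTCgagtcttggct
Rps2, chr17:24720080-24720109, plus strand: tataaattgtccCTTCCgcggcgcctccct
Rpl9, chr5:65391382-65391411, minus strand: cgaaagacgttctCTCTTtgccccatctac
Rpl11, chr4:136053354-136053383, minus strand: aagtctccctctCTCTTcctgttctccacc
Rps15, chr10:80292444-80292473, plus strand: gcgcagcccgtaCTTCCttttccgagtaac
Rps15a, chr7:118116138-118116167, minus strand: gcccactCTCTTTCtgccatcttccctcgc
Rpl27a, chr7:109519193-109519222, plus strand: cctcccttttccCTTTCtgccaccgccatg

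In the window from 20 bases before to 49 bases after the annotated start, 44 of the 57 members held at least 1 of these 3 motifs on the gene's strand, or 77.2% against 30.7% of 27025 genes with a promoter in the same table. On the other strand the shares were 33.3% and 32.6%. The motif CTCTT was present in 50.9% of members and 11% of all genes, the motif CTTTC in 49.1% and 10.4%, and the motif CTTCC in 42.1% and 16.3%. The run CTCTTTC, in which the first 2 motifs overlap, was held by 11 members (19.3% against 1.11%). The 3 motifs and the window were chosen after the sequences had been seen, and a match is a description of letters, not of a working tract. Members with a match had a median of 503 UMIs (n = 44) and those without 1152 (n = 13).

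Of 384 wells, 169 held 0 UMIs of genes and 54 held fewer than 2000, which left 161 cells: 35 of Tom+ 1, 58 of Tom+ 2, 20 of Tom- 1 and 48 of Tom- 2. The libraries summed to between 81630 and 305407 UMIs, with medians of 3225 to 4524.5 a cell, and no well name was shared between libraries. All 9 markers of basal keratinocytes were detected, at 2.89% to 4.50% of the UMIs of a library. The defining markers Cd34 and Lgr5 of the hair follicle bulge, Dct, Mlana and Kit of melanocytes, Cdh5, Kdr and Cldn5 of endothelium and Col3a1 and Lum of fibroblasts were at 0 UMIs. Of the whole lists, 3 of 5 bulge, 2 of 5 melanocyte, 4 of 6 fibroblast and 2 of 5 endothelial markers had a UMI, and each list took at most 0.0179%, 0.000982%, 0.0135% and 0.00191% of the UMIs of a library. tdTomato had a UMI in 16 of 35 and 29 of 58 Tom+ cells and in 0 of 20 and 3 of 48 Tom- cells. At least 3 markers of the infundibulum were seen in 28 cells, of sebaceous gland in 4, of T cells in 3 and of Langerhans cells in 2, and no marker list of these types took more than 0.203% of the UMIs of a library.

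The members took 12.3% of all UMIs (89547 of 728896). A small number of names carried much of this: 14 of 77 held 50% of the member UMIs, and the top 5 held 23.6%. Rplp1, an acidic protein of the large-subunit stalk, had 71.0 and 79.0 UMIs per 10000 gene UMIs in Tom+ 1 and Tom+ 2 and 67.6 and 78.2 in Tom- 1 and Tom- 2. Rps29, a small zinc-binding protein of the small subunit, had 66.5 and 79.0 in Tom+ and 59.7 and 74.8 in Tom-. Both were lower in the 2 libraries numbered 1 than in the 2 numbered 2, whatever the sort. Rpl13a (41.3 to 57.4 per 10000) and Rps28 (38.6 to 48.5) were also among the top 5. At the other end, Rpl30 (0.254 to 0.488), Rpl7l1 (0.318 to 0.858), Rpl31 (0.704 to 1.21), Rpl21 (0.813 to 1.72) and Rpl7a (1.38 to 2.98) had the fewest. Levels are UMIs per 10000 and were not divided by length, since a UMI counts a molecule and not its fragments. The median member held 580 UMIs. The order of the 77 levels was much the same in all libraries, with Spearman's rho of 0.932 to 0.980 between pairs of libraries, a description over genes. Replicate libraries still differed by more than counting, by 6.54 (Tom+) and 7.52 (Tom-) times the chi-square expected per degree of freedom over the members, beside 2.37 and 2.30 over all genes. This ratio grows with the UMIs of a gene, and many members were abundant. It therefore cannot show whether members varied more between replicates than other genes of their level.

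The level of a single member also depends on how reads of near-identical copies were counted, which the sources used here do not state. Each member was represented by 1 GENCODE vM21 transcript. Some of these were short (254 bases for Rpl18, 460 for Rpl3) and need not be the full mRNA. In these transcripts, 55 of 77 members shared more than 50% of their 30-base stretches with other annotated genes on the same strand. Rpl10 shared 94.5%, Rps10 97% and Rps3 9.35%. Within the first 100 bases of the transcript used, Rpl10 and Rps10 shared 100% and Rps3 0%. Whether these bases are the 5′ end that is read was not checked, here or for the genes below. Pseudogene names left out by the rule held 4573 UMIs, equal to 5.11% of the member UMIs. Rpl31-ps12 held 2286 against 74 for Rpl31, Rps15a-ps4 held 1686 against 251 for Rps15a, and Rpl34-ps1 held 433 against 13 for Rpl34. Rpl34 itself was below the UMI minimum of the rule and is not a member. The counts of Rpl31, Rps15a and of the other members with close copies are therefore uncertain as levels. Across the members tested, Spearman's rho between the shared percentage and the level was -0.12 (76 genes, a description). The 55 members over 50% shared held a median of 535 UMIs and the other 22 a median of 986.5.

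Paralog pairs were compared by the percentage of their UMIs on 1 of the genes, and differences between libraries were not tested. Rpl22l1 made up 26.4% and 29.7% of the Rpl22 and Rpl22l1 UMIs in Tom+ and 30.0% and 26.3% in Tom-, with exact binomial 95% intervals between 18.3% and 43.2% that all overlapped. Rpl36al made up 45.9% and 55.0% of its pair in Tom+ and 53.2% and 52.7% in Tom-, and these intervals overlapped too, within 39.8% to 61.3%. Rpl7l1, whose yeast relative acts in subunit assembly, made up 1.94% to 5.79% of its pair with Rpl7, with 5.16% in Tom+ 2 (interval 3.14% to 7.95%) and 1.94% in Tom- 2 (0.84% to 3.78%). Rps27l held 386 UMIs against 2 for Rps27, the parent form. How reads with several matches were counted is not stated, so these counts are uncertain as a measure of which gene was used. Rpl39l held 0 UMIs against 2392 for Rpl39, with an exact binomial 95% upper bound of 0.354% to 1.56% by library. Rpl3l and Rpl10l, known from muscle and testis, were also at 0.

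A cell devoted on average between 11.2% and 12.6% of its UMIs to the members, depending on the library. The mean was 11.2% ± 4.92 (SD over 35 cells) in Tom+ 1, 12.6% ± 3.58 (58 cells) in Tom+ 2, 11.6% ± 3.34 (20 cells) in Tom- 1 and 12.4% ± 4.87 (48 cells) in Tom- 2. The Tom- values lay between the Tom+ values. Over libraries, Tom+ had 11.9% ± 1.02 (SD, n = 2) and Tom- 12% ± 0.594 (SD, n = 2), a difference of -0.113 percentage points (exact permutation test, two-sided, p = 1). With 2 libraries against 2 this test cannot go below 0.333. Within the libraries numbered 1 the difference was -0.417, and within those numbered 2 it was 0.191. The sign turned with a minimum per cell of 1000 UMIs (0.541) or 5000 UMIs (0.641), with summed UMIs (0.0856), and without Tom+ 1 (0.611) or Tom- 2 (0.307). The difference was smaller than the spread between libraries of one sort.

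Cells differed far more than libraries. Shares ran from 1.38% to 21.3%, and the SD over cells was 6.31 to 9.71 times the 0.496 to 0.574 percentage points that counting alone would give. The 2 subunits rose and fell together: within libraries, Pearson's r between the small- and the large-subunit share of a cell was 0.974, 0.95, 0.877 and 0.963 (Tom+ 1, Tom+ 2, Tom- 1, Tom- 2; 35, 58, 20 and 48 cells). Without the low-share cells described below it was 0.958, 0.934, 0.792 and 0.862. These values are descriptions, since both shares have the same denominator. In all, small-subunit names held 47.9% of member UMIs and large-subunit names 52.1%.

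**Figure D1:**
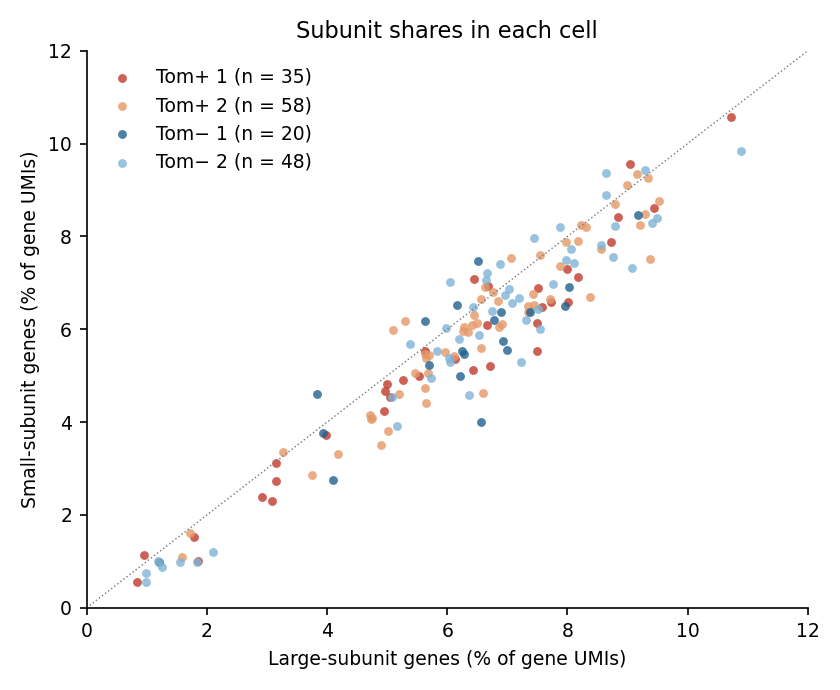
Share of gene UMIs (%) on large-subunit members (x axis) and small-subunit members (y axis) in each of the 161 cells, coloured by library, with the line of equal shares dotted. The cells lie along 1 band in all 4 libraries, and 14 cells sit apart at its lower end, with at most 2.11% on large-subunit and 1.61% on small-subunit genes.

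The shares of other mRNAs with TOP tracts correlated with that of the members over cells. Rpsa (a laminin-binding protein of the small subunit) and Fau (made as a fusion with a ubiquitin-like protein), which the name rule misses, together took 0.517% to 0.697% of UMIs. Their summed share in a cell correlated with that of the members at Spearman's rho 0.836, 0.762, 0.743 and 0.682 in the 4 libraries, and at 0.767, 0.735, 0.7 and 0.496 without the low-share cells. The 25 elongation factors and other TOP mRNAs, among them Eef1a1, Tpt1 and Eef2, took 1.95% to 2.14% and correlated at 0.894, 0.770, 0.860 and 0.799, and without those cells at 0.851, 0.745, 0.837 and 0.682. For the number of gene UMIs in a cell and its ribosomal share, rho was 0.164, 0.0484, -0.284 and -0.0266, and -0.167, -0.0274, -0.263 and -0.44 without the low-share cells. These correlations are over cells of 1 library with a common denominator and are not tests.

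The question of differentiation was put by comparing cells with and without Krt10, the keratin that marks commitment. A cell was called Krt10-positive when it held at least 6 Krt10 UMIs after thinning to 2000 UMIs, which gave 25 and 37 positive cells in Tom+ and only 3 and 4 in Tom-. In Tom+ 1, Krt10-positive cells had 10.4% ± 5.11 of their UMIs on the members (SD, 25 cells) and Krt10-negative cells 13.2% ± 3.96 (10 cells). In Tom+ 2 the values were 12.8% ± 3.94 (37 cells) and 12.4% ± 2.91 (21 cells). Positive cells were thus lower in the first library and slightly higher in the second. In Tom- 1 they were 9.82% ± 6.61 (3 cells) and 11.9% ± 2.66 (17 cells), and in Tom- 2 13.3% ± 3.54 (4 cells) and 12.4% ± 5 (44 cells).

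Positive minus negative was -2.82, 0.409, -2.10 and 0.967 percentage points in Tom+ 1, Tom+ 2, Tom- 1 and Tom- 2, a mean of -0.885 ± 1.85 (SD, n = 4; exact sign-flip permutation test, two-sided, p = 0.5, smallest possible 0.125). With the random draw used for the thinning, differences thus had both signs and were of the size of their spread. With the 14 low-share cells left out they were -1.30, 0.968, 1.71 and -0.933, with a mean of 0.113, so the sign turned in both Tom- libraries. Among Krt10-negative cells alone, Tom+ had 12.8% ± 0.583 and Tom- 12.1% ± 0.314 (SD, n = 2 each), a difference of 0.645 points (exact permutation test, two-sided, p = 0.333, the smallest possible). It was 1.28 within the libraries numbered 1 and 0.0103 within those numbered 2, and it became -0.305 without the low-share cells and -1.11 with a cut-off of 1 Krt10 UMI.

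**Figure D2:**
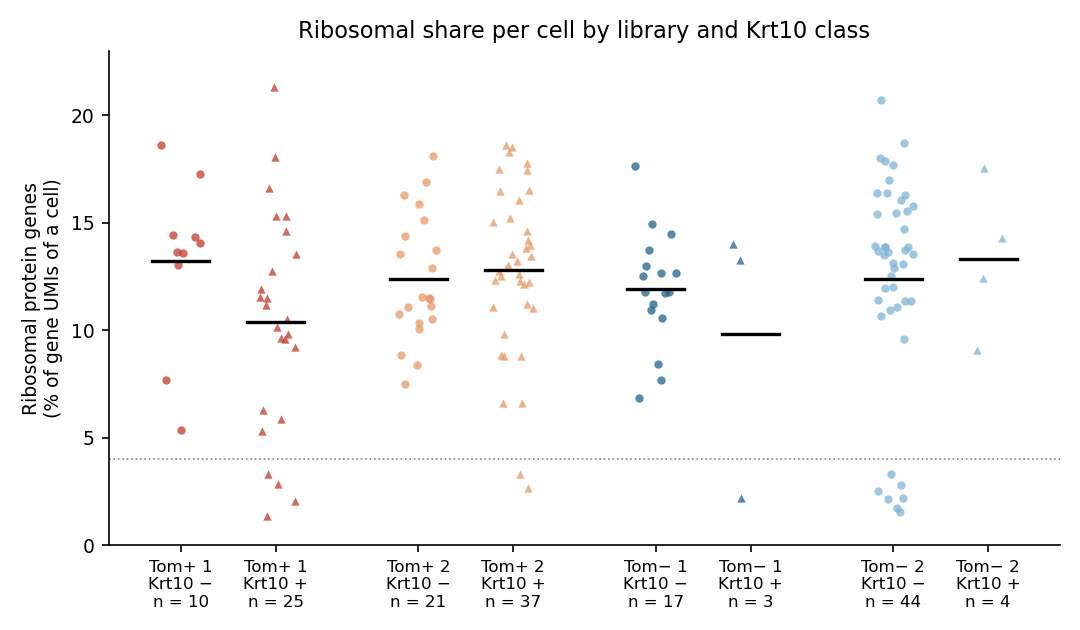
Percent of gene UMIs on the 77 ribosomal protein genes (y axis) in each cell, by library and Krt10 class (x axis, circles negative, triangles positive), with class means as black bars and 4% as a dotted line. Class means lie between 9.82% and 13.3%, and 14 cells fall below the dotted line: 6 Krt10-positive cells of Tom+, 1 of Tom- 1 and 7 Krt10-negative cells of Tom- 2.

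Single genes were tested on UMIs summed per library (sort) or per library and Krt10 class, with edgeR's quasi-likelihood test and Benjamini-Hochberg adjustment over all genes tested. Between Tom+ and Tom-, 0 of 76 tested members passed an adjusted p of 0.05, where 1.24% of 3070 genes did. At an unadjusted p under 0.05 there were 2 members, against 9.84% of all genes. With the library number as a block, edgeR called 1 member (Rpl7) and 116 of 3070 genes. Without that block, DESeq2 and limma-voom called 0 members, with 1 and 3 at an unadjusted p under 0.05. The values that follow are from the edgeR fit without that block. The median log2 fold change of the members was 0.02 (quartiles -0.11 and 0.15), beside -0.01 for all genes tested (-0.36 and 0.34). Of the 76, 40 lay above 0 and 36 below (49.5% of all genes lay above 0), and for 62 the 95% interval lay within 1 log2 unit of 0 on both sides. The same sort separated the differentiation markers: 7 of 7 tested rose in Tom+, Krt10 by 2.23 ± 0.30 (log2 fold change ± SE, adjusted p = 0.000174).

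Rpl7a, a large-subunit protein, and Rpl7, which binds the large ribosomal RNA, lay farthest below the other members. Rpl7 had 12.5 and 11.4 UMIs per 10000 in Tom+ and 14.0 and 21.9 in Tom-, so that the groups did not overlap, and its log2 fold change was -0.66 ± 0.27 (SE, adjusted p = 0.370). Rpl7a had 1.40 and 1.38 in Tom+ and 2.08 and 2.98 in Tom- (-0.95 ± 0.37, adjusted p = 0.331). Both were highest in Tom- 2. Without that library the fold change of Rpl7 was -0.16 and that of Rpl7a -0.51, and without Tom- 1 they were -0.98 and -1.20. Rpl7a shares 85.4% of its 30-base stretches with other genes, and 14.1% of those in the first 100 bases. Rpl7l1 (-0.31), Rpl6 (-0.30) and Rps6 (-0.27), the last the target of the S6 kinases, came next. On the upper side were Rpl9 at 0.68 ± 0.35 (adjusted p = 0.566), Rpl14 at 0.47, Rpl31 at 0.37 and Rps19 at 0.36. Rpl9 shares 92% of its stretches with other genes, and 100% of those in the first 100 bases. Without Tom- 2, Rpl14 stood at 0.08, Rpl31 at 0.11 and Rps19 at 0.07. Rps19 is the gene first tied to Diamond-Blackfan anaemia. Of these genes, 0 passed the threshold in this fit (edgeR). With the library number as a block, Rpl7 passed it (-0.63 ± 0.20, edgeR adjusted p = 0.0455). The 2 libraries of one sort lay on one side of both libraries of the other for 12 of 76 members (15.8%), against 38.9% of all genes tested.

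Between Krt10-positive and Krt10-negative cells, 0 of 73 tested members passed, where 9.52% of 1166 genes did. Unadjusted p-values under 0.05 were found for 2 members against 19% of all genes, and DESeq2 and limma-voom called 0, with 2 and 3 at an unadjusted p under 0.05. The median of the members was -0.11 (quartiles -0.23 and -0.01), beside -0.04 for all genes (-0.35 and 0.33), and 57 of the 73 lay below 0 and 16 above it, where 46.8% of all genes lay above 0. Over the alternatives tried the member median ran from -0.39 to 0.07, and the members at an unadjusted p under 0.05 from 0 to 18. Both the -0.39 (all genes -0.18) and the 18 came from a cut-off of 10 Krt10 UMIs. The share of all genes at that p is not given for this cut-off, and scaled to the member total 0 members reached it there. In the main fit scaled to the member total, 37 of 73 lay above 0 (55.9% of all genes). For 65 members the 95% interval lay within 1 log2 unit of 0. In the same fit 7 of 7 tested differentiation markers rose, among them Krt10, whose rise is set by the class definition. Of 9 tested basal markers, 3 were called lower (Krt5, Krt14 and Col17a1) and 0 higher.

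Rpl23, a large-subunit protein that can also bind Mdm2, came nearest to a call. Its level in positive and negative cells was 19.7 and 27.5 UMIs per 10000 in Tom+ 1, 26.8 and 26.1 in Tom+ 2, 11.9 and 25 in Tom- 1, and 13.9 and 23.1 in Tom- 2. It was thus lower in positive cells of 3 libraries and slightly higher in those of Tom+ 2. The log2 fold change was -0.51 ± 0.19 (SE, adjusted p = 0.0938), and the adjusted p fell to between 0.0102 and 0.0481 in 6 alternatives that changed the cells, the class or the libraries, leaving out Tom+ 2 among them (0.0233), and ran up to 0.866 over the others. It shares 38% of its 30-base stretches with other genes, but 0% of those in the first 100 bases. Rpl35a (-0.53), Rpl28 (-0.48) and Rpl10 (-0.42) were also among the lowest. Above the median lay Rpl27a (0.41 ± 0.30), Rps27a (0.29), Rpl15 (0.25), Rpl3 (0.21) and Rps14 (0.19), all with adjusted p of 0.554 or more.

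**Figure D3:**
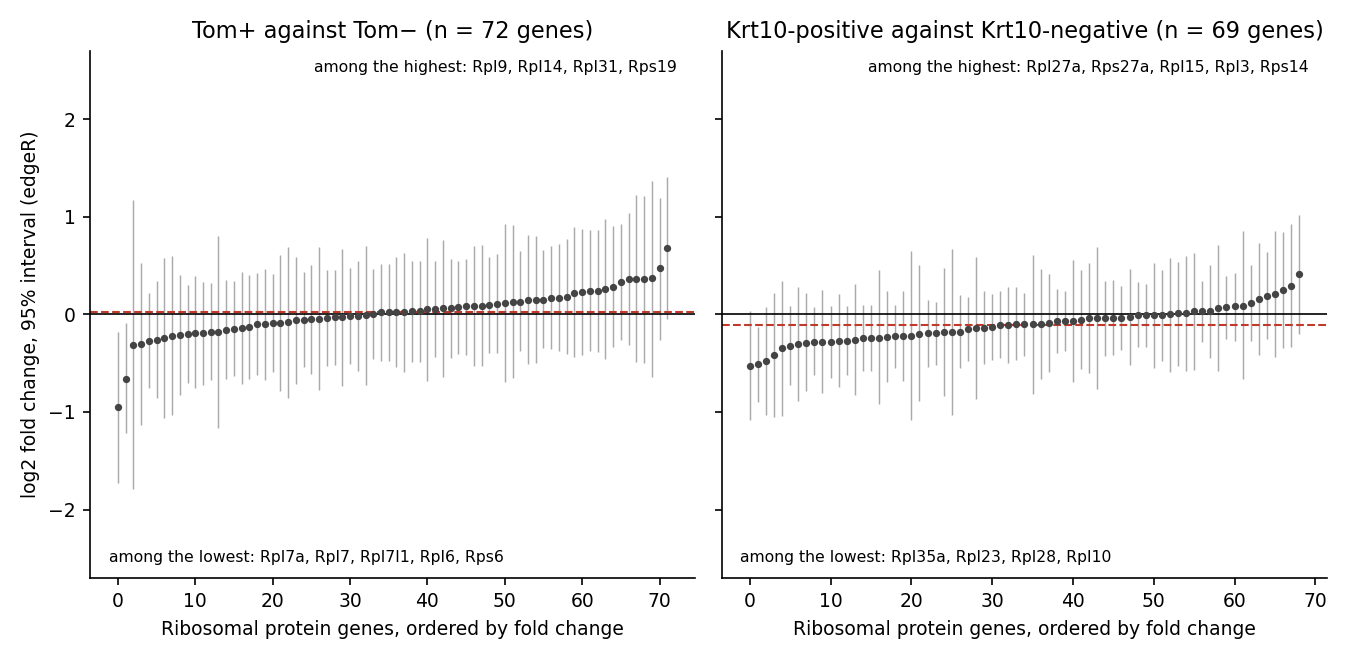
Log2 fold change with 95% interval (y axis, edgeR) of tested members, ordered along the x axis, between Tom+ and Tom- (left, 72 genes drawn) and between Krt10-positive and Krt10-negative cells (right, 69 genes drawn), with the median of all tested members dashed in red. Points keep close to 0, with medians of 0.02 and -0.11, and among the genes drawn the only intervals that leave out 0 are those of Rpl7a and Rpl7 on the left and of Rpl23 on the right.

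Scaling to the summed member UMIs of each library or class, which asks whether a gene left the common course of the others, gave the same counts: 0 of 76 members for the sort (0.879% of all genes called) and 0 of 73 for Krt10 (10.7%), with 2 members each at an unadjusted p under 0.05 (8.86% and 19% of all genes). DESeq2 and limma-voom called 0 here as well, with 1 and 3 members at an unadjusted p under 0.05 for the sort and 0 and 0 for Krt10. Member medians were then 0.05 and 0.00. In related lists, scaled to all genes, the counts were also 0. Among the 24 TOP mRNAs, 29 initiation factors, 15 ribosome biogenesis genes and 33 mitochondrial ribosomal protein genes tested between the sorts, 0 passed (edgeR), and their medians were -0.09, 0.07, 0.09 and 0.15. Of the 22, 20, 6 and 4 tested between Krt10 classes, 0 passed, with medians of -0.17, -0.05, 0.15 and 0.11. Rpsa and Fau lay between -0.01 and 0.10 in both comparisons.

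The members did split by library number. Both libraries numbered 2 lay above or below both numbered 1 for 48 of 76 members (63.2%), against 35.3% of all 3070 genes, with 21 members higher and 27 lower. This comparison was added after the data had been seen, with the sort as a block in edgeR, and it leaves 1 residual degree of freedom. It called 2 of 76 members (0.423% of all genes), both lower in the libraries numbered 2 (0.228% of all genes), and had 29 at an unadjusted p under 0.05, beside 8.93% of all genes. What a number stands for (a mouse, a day or a chip lot) cannot be told apart.

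Rps26, which lies at the exit of mRNA from the small subunit, was one of those called. It had 6.36 UMIs per 10000 in Tom+ 1 and 5.76 in Tom- 1, against 3.24 in Tom+ 2 and 1.95 in Tom- 2, so that each library numbered 1 lay above each numbered 2. Its log2 fold change between numbers 2 and 1 was -1.14 ± 0.28 (SE, edgeR adjusted p = 0.0222). It shares 46% of its 30-base stretches with other genes, and 0% of those in the first 100 bases of the transcript used. Among the members that did not pass were Rps2 (-0.99, adjusted p = 0.143), Rpl17 (-0.95, 0.108), Rpl3 (-0.85, 0.190), the stalk protein Rplp0 (-0.82, 0.108) and Rps15 (-0.80, 0.370) on the lower side, and Rpl29 (0.63, 0.322), Rps7 (0.57, 0.405), Rpl4 (0.55, 0.0987), Rps3a1 (0.52, 0.0987) and Rpl13a (0.45, 0.189) on the upper side. Without the low-share cells the fold change of Rps26 was -1.12, while the adjusted p rose to 0.391. Leaving out any 1 of the 4 libraries (Tom+ 1, Tom+ 2, Tom- 1 or Tom- 2) left 0 members called, with fold changes of -1.52 to -0.80 for Rps26. DESeq2 called 0 members, with 6 at an unadjusted p under 0.05, and limma-voom called 8. Scaled to the member total, 1 of 76 members was called by edgeR (0.0326% of all genes), and 19 members had an unadjusted p under 0.05 (10.8% of all genes).

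The direction went with the level of the gene. Of the 32 members at 10 or more UMIs per 10000, 2 lay below 0 and the median was 0.30. Of the 43 at 1 to 10 per 10000, 31 lay below 0 and the median was -0.31. Other genes in the same ranges had medians of 0.13 (96 genes) and 0.02 (1388 genes). Spearman's rho between level and fold change was 0.73 over the 76 members and 0.12 over all genes tested, both descriptions over genes that share the 4 libraries. For the percentage of stretches shared with other genes, rho with the fold change was -0.11, and for the length of the transcript used -0.078. The 54 tested members over 50% shared had a median fold change of 0.01, and the 22 others 0.20. The part of close copies in the result was not tested.

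**Figure D4:**
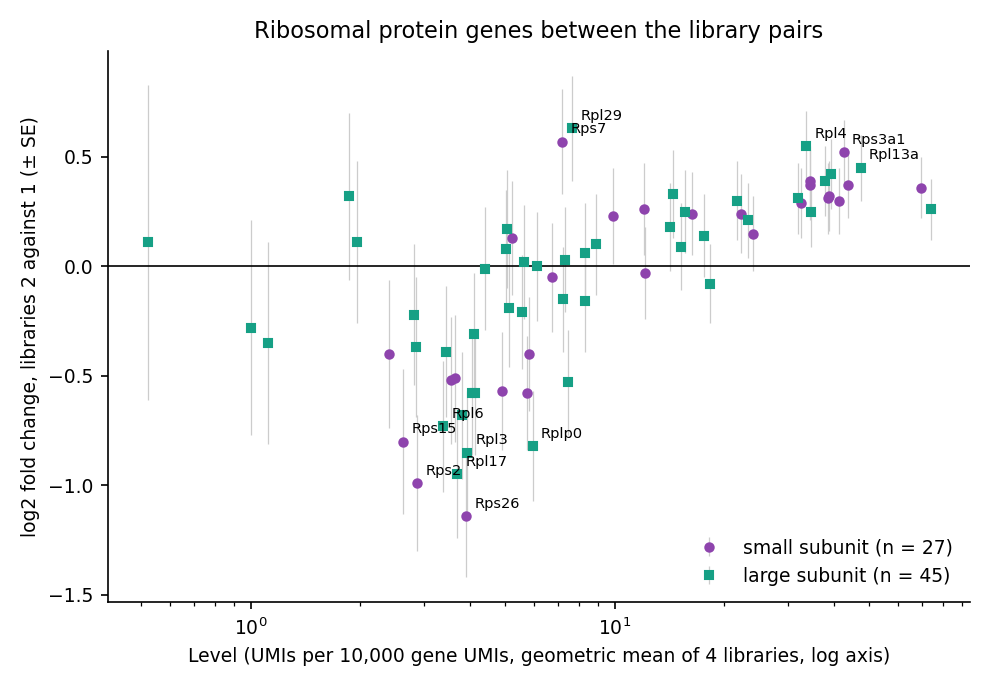
Log2 fold change ± SE between libraries numbered 2 and 1 (y axis, edgeR with the sort as a block) against the level of 72 of the 76 tested members (x axis, UMIs per 10000 gene UMIs, geometric mean of 4 libraries, log axis), by subunit. Of the 29 members drawn at 10 or more per 10000, 2 lie below 0, and most of the less abundant ones lie below, down to Rps26 at -1.14.

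A small set of cells had a much smaller share of their UMIs on the members than the rest. In 14 of 161 cells the members took 1.38% to 3.32% of UMIs, and the next cell lay at 5.31%. These are the low-share cells. Their ribosomal RNA and protein were not measured. Tom+ 1 had 4 of 35 such cells (11.4%, exact binomial 95% interval 3.20% to 26.7%), Tom+ 2 had 2 of 58 (3.45%, 0.420% to 11.9%), Tom- 1 had 1 of 20 (5%, 0.127% to 24.9%) and Tom- 2 had 7 of 48 (14.6%, 6.07% to 27.8%). The intervals overlapped. All 7 of Tom+ and Tom- 1 were Krt10-positive, and all 7 of Tom- 2 were Krt10-negative. Their place on the chips was uneven too: those of Tom- 2 all lay in well columns 1 to 3, which held 15 of the 48 cells, and those of Tom+ 1 all lay in well row H, which held 5 of the 35 cells. The part of chip position in the result was not tested. The cells were picked by their ribosomal share, so what follows describes them without a test.

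These cells had 2024 to 4142 UMIs each, from 1022 to 2063 genes with a UMI, and so passed the depth minimum. In Tom+ 1, Tom+ 2 and Tom- 2 they were shallower, with medians of 2454, 2954 and 2514 UMIs against 4082, 4664 and 3338 in the other cells. The 1 cell of Tom- 1 had 4142 against 3636. Mitochondrially encoded genes took 5.52% to 13.4% of the UMIs of the low-share cells. Library medians were 6.37% to 12.3%, against 5.10% to 6.35% in the other cells of the same libraries. Spike-in RNA, added in the laboratory and not part of the gene UMIs, came to a median of 2.56% to 4.585% against 1.93% to 3.08%. Malat1, a nuclear non-coding RNA, was 1.87 times the level expected from the other cells of the same libraries (95% Poisson interval 1.78 to 1.97, counting error only). The part of depth, RNA quality or cell damage in the result was not tested.

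With the same measure, the members together stood at 0.191 of the expected UMIs (947 against 4950, interval 0.179 to 0.204), the small subunit at 0.169 and the large subunit at 0.212. Rpsa and Fau together stood at 0.137 and other TOP mRNAs at 0.386, with Eef1a1 at 0.278, Eef2 at 0.403 and Tpt1 at 0.335. Pabpc1, the poly(A)-binding protein, stood at 0.887 (0.607 to 1.25), and Gas5, a non-coding RNA with a TOP start, at 1.91 (1.31 to 2.7). Mitochondrial ribosomal protein genes stood at 0.491, ribosome biogenesis genes at 0.786 and initiation factors at 0.835. Basal keratinocyte markers were at 0.865 and differentiation markers at 1.19 of the expected UMIs, but both lists went in both directions by library. Basal markers had 209, 420, 145 and 424 UMIs per 10000 in the low-share cells of Tom+ 1, Tom+ 2, Tom- 1 and Tom- 2, against 314, 287, 425 and 453 in the other cells. Differentiation markers had 292, 171, 263 and 12.4 against 212, 224, 51.5 and 43.6. The 5 sebaceous gland markers stood at 2.75 (1.92 to 3.83), with 35 UMIs against 12.7 expected. They were higher in the low-share cells of each library, with 8.59, 15.2, 33.8 and 1.7 against 5.99, 4.77, 2.58 and 1.44 per 10000. The value of Tom- 1 comes from 1 cell. Elovl4 of this list was also called higher in Krt10-positive cells, the class of all low-share cells of Tom+ and Tom- 1. The part of the sebaceous gland markers in the result was not tested. Thbs1, a matrix protein, was at 6.14 times the expected UMIs (135 against 22), mostly from Tom- 2, where it had 69.5 UMIs per 10000 against 8.09 in the other cells, and it was at 0 in the cell of Tom- 1. It was named after its value had been seen.

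The shortfall was not uniform over the members. The 29 members with at least 1000 UMIs all stood between 0.0993 and 0.299 of expectation, with a median of 0.153. Rps12 had 10 UMIs against 101 expected (0.0993, interval 0.0476 to 0.183), Rpl13a had 21 against 206 (0.102) and Rpl24 had 7 against 63.3 (0.111). Rps7 had 0 UMIs against 30.5 expected (upper bound 0.121), and Rpl7l1 and Rpl30 were also at 0, with 1.95 and 1.56 expected. For 17 members the interval included 1, which few counts alone can bring about: Rpl7l1 (0 to 1.89), Rpl30 (0 to 2.37) and Rpl31 (0.266, 0.00673 to 1.48) were among them, each with at most 1 UMI. Rpl9 had 13 UMIs against 9.92 expected (1.31, 0.697 to 2.24), Rpl11, which like Rpl23 can bind Mdm2, had 14 against 15.0 (0.934), Rps15 had 9 against 9.80 (0.918) and Rps15a had 11 against 13.8 (0.795). Rpl27a stood at 0.784. Of the 22 members under 300 UMIs, 11 stood above 0.5, against 0 of the 29 with at least 1000 UMIs. The cells were picked by the summed member share, in which abundant members weigh most. A contrast by level can therefore follow in part from that choice.

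Members with a higher ratio in these cells tended to be those lower in the libraries numbered 2. Spearman's rho between the 2 measures was -0.64 over 76 members, and between level and the ratio in these cells -0.61. Both are descriptions over genes, and the cells belong to the libraries compared and were picked by a share in which abundant members weigh most. Rps15a, 78.3% of whose stretches occur in another gene (56.3% in the first 100 bases), stood at 0.795. The row named Rps15a-ps4 stood at 0.0735 (7 UMIs against 95.3).

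**Figure D5:**
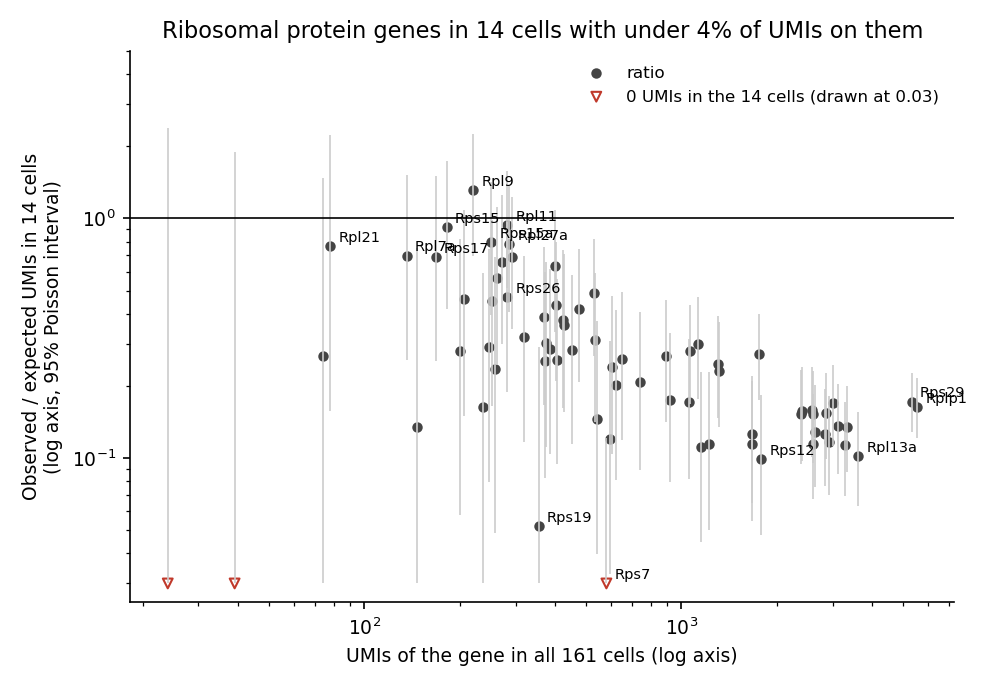
Observed over expected UMIs of 73 of the 77 members in the 14 low-share cells (y axis, log, 95% Poisson interval, expectation from the other cells of the same library) against the UMIs of the gene in all 161 cells (x axis, log). The members drawn with at least 1000 UMIs lie between 0.0993 and 0.299, while Rpl9, Rpl11 and Rps15 lie near 1 and the 3 members with 0 UMIs, Rps7 among them, are drawn at 0.03.

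Single members varied around the common course by somewhat more than counting. The variance of a member's UMIs over cells of a library, relative to the member total of each cell, was a median of 1.45 times that of counting alone. Rps7 was lowest at 0.979 and Rpl9 highest at 2.81, followed by Rps4x, the X-linked small-subunit gene, at 2.49, and Rpl7 and Rpl11, both at 2.48. These ratios include the low-share cells and carry no test.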

How the data were processed

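Single cells were captured on Fluidigm C1 chips and the 5′ ends of their cDNA were tagged with UMIs. The authors deposited, per library, a table of whole-number UMI counts per gene and well, together with spike-in and reporter rows, and the submitters' processing notes name the mm10 (GRCm38) build. The aligner, the annotation and the treatment of reads with several matches are not given in the sources used here. All gene counts were used as deposited, and doublets were not called. Wells with at least 2000 gene UMIs were kept as cells, spike-in and reporter rows being left out of totals.

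A share was the percent of gene UMIs of a cell on the members, averaged over cells, and libraries were compared by exact permutation tests. Summed counts were fitted with edgeR 4.0.16 (quasi-likelihood, TMM, default low-count filter, Benjamini-Hochberg adjustment, library as block for Krt10 classes), scaled to all genes or to the member total. The fits were also run on simulated counts, with means, library sizes and 1 dispersion for all genes taken from the real sums. No effect of library or library number was simulated, so recovery in the real data can be lower. In the simulated counts the sort fit recovered 2 of 12 ribosomal genes changed 2-fold and 18 of 21 changed 4-fold. The Krt10 fit recovered 16 of 17 and 17 of 17. DESeq2 1.42.0 and limma 3.58.1 were alternatives in R 4.3.3; exact tests used scipy 1.17.1. Intervals on counts cover counting error only. Genes were named if called, if among the 5 farthest on either side of the member median, if among the 5 with most or fewest UMIs, or as paralogs; the genes of the library-number comparison and of the low-share cells were named after their values were seen. The members and lists were chosen with earlier results of these data known.

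Alternatives changed the minimum UMIs per cell, the cells kept, the denominator, thinning, the Krt10 cut-off, seed and class, the normalization, the low-count filter, the tool, the block and the libraries. The 6 pseudogene-named rows were left out by the rule. Results for some single genes are not reported here, and 4 members, kept in all totals, fits and counts, are not drawn in the plots of single genes.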

Additional observations from a re-analysis of the deposited data

Results flagged for a closer look

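The ribosomal share of Krt10-positive minus Krt10-negative cells differed in sign between the libraries numbered 1 and those numbered 2. It was -2.82 percentage points in Tom+ 1 and -2.10 in Tom- 1, against 0.409 in Tom+ 2 and 0.967 in Tom- 2. The difference between the numbers was not tested, and the Tom- values rest on 3 and 4 positive cells. The pattern also depends on the random draw of the thinning and on the Krt10 cut-off. With seeds 7 and 16 and with a cut-off of 10 Krt10 UMIs, all 4 differences were negative. Their means were -1.72, -1.76 and -1.88 (exact sign-flip permutation test, two-sided, p = 0.125 each, the smallest possible). Without the low-share cells the values were -1.30, 1.71, 0.968 and -0.933 in the same order, and the 2 libraries of a number no longer had 1 sign.

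Rows named as pseudogenes of ribosomal protein genes, which are not among the members, held 4573 UMIs in the 161 cells. Of these, 882 were in Tom+ 1, 1981 in Tom+ 2, 495 in Tom- 1 and 1215 in Tom- 2. Rpl31-ps12 (2286) and Rps15a-ps4 (1686) held most of them. Between the sorts their log2 fold changes were -0.07 and -0.13, and between Krt10 classes -0.12 and -0.16 (edgeR adjusted p of 0.737 or more). In the low-share cells the rows together stood at 0.145 of the expected UMIs (95% Poisson interval 0.102 to 0.200).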

How the results depend on the processing

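The share difference between the sorts turned sign in 5 of 16 alternatives: 0.541 and 0.641 with minimums of 1000 and 5000 UMIs, 0.0856 with summed UMIs, and -0.837 to 0.611 without 1 library each. The Krt10 difference turned to 0.144 with a cut-off of 1 UMI and to 0.113 without the low-share cells, against -2.10 to -0.483 over 20 thinning seeds, and without 1 library each it was -1.50 to -0.242. With classes from scaled counts, which use no random draw, it was -1.34. Among Krt10-negative cells the sort difference turned to -1.11 (cut-off 1), -0.031 (medians) and -0.305 (without low-share cells), against 0.233 to 1.06 without 1 library each. The cause of these changes was not tested.

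With the library number as a replicate block the share differences were the same (-0.113, and 0.645 among Krt10-negative cells), and 116 genes instead of 38 were called between the sorts, 1 of them a member (Rpl7, -0.63, edgeR adjusted p = 0.0455). Deviations of same-numbered libraries correlated at 0.136 over 3070 genes and 0.586 over 76 members. With 2 pairs and no stated meaning, the numbers were not used as a block in the main fit of the sort. Over all alternatives the genes called ran from 8 to 116 for the sort (main 38) and from 20 to 150 for Krt10 (main 111). For Krt10, 1 member (Rpl23) was called with cut-off 10, classes from scaled counts, seeds 4 and 6, cells with 3 other markers left out, and 0 to 1 without 1 library each. Relative to the member total, the sort gave 0 to 1 without 1 library each. Between library numbers, 0 members were called with minimums of 1000 or 5000, without cells with 3 other markers, without the low-share cells, by DESeq2, without the sort block and without any 1 library, 1 without the top 5% of cells, with thinned counts and with library totals, and 8 by limma-voom. Relative to the member total (main 1), the counts were 0 with both minimums, without cells with other markers, by DESeq2, by limma-voom and without the sort block, 6 without the top 5% of cells, 2 with thinned counts and without low-share cells, 4 without the low-count filter, and 0 to 2 without 1 library each.

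Single genes whose sign turned had adjusted p-values far from the threshold. Between the sorts these were Rpl7l1 (0.30 without cells with other markers, 0.11 by limma-voom, and -0.97 to 0.10 without 1 library each) and Rpl6 (-0.92 to 0.58 without 1 library each). Between Krt10 classes, cut-off 1 gave Rpl28 0.04 and Rpl10 0.32, cut-off 3 gave Rps27a -0.02, and cut-off 10 gave Rpl27a -0.19, Rps27a -0.30, Rpl15 -0.05 and Rps14 -0.36. A minimum of 5000 gave Rps27a -0.35, Rpl15 -0.36 and Rps14 -0.05, and leaving out the top 5% of cells gave Rpl27a -0.06, Rps27a 0.00 and Rps14 -0.18. Seed 6 gave Rpl27a -0.03, Rps27a -0.07 and Rps14 -0.26, seed 2 gave Rps14 -0.06, scaled classes gave Rps14 -0.19, no low-count filter gave Rps14 -0.02, and Rpl3 ran from -0.12 to 0.40 without 1 library each. With a minimum of 5000, Tom- 1 had no Krt10-positive cell. With 2 libraries a sort and 3 and 4 Krt10-positive Tom- cells, the 95% interval of the sort fold change stayed within 1 log2 unit for 62 of 76 members. Leaving out the low-share cells and comparing library numbers were chosen after seeing the data.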
